A study of Mus musculus with 10 samples.

Results

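Cytosolic ribosomal protein genes encode the protein part of the ribosome that translates mRNA in the cytoplasm. They were taken from the deposited gene table by symbol (Rpl or Rps with a number and at most 1 letter a, x or y, plus the stalk genes Rplp0, Rplp1 and Rplp2 and the laminin receptor gene Rpsa), leaving out pseudogene rows marked -ps. Among 32648 genes 76 matched, and 75 had a mean level of at least 10 TPM (a level normalised to transcript length and library size) over the 10 libraries. These 75 members comprise 29 genes of the small (40S) subunit and 46 of the large (60S) subunit. The members were chosen by symbol and selected on their mean TPM, so levels are described below without a test. Rps12 was the only matching gene left out and was listed at 0 TPM in every library. The lowest genes inside the limit were Rpl5 at a mean of 11.7 TPM, Rpl12 at 17.6 and Rpl27a at 51.4.

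The libraries came from adult C57BL/6 mice of 8 to 12 weeks that carry the Ren1c-YFP reporter, in which renin promoter activity drives yellow fluorescent protein. Living YFP-positive cells were sorted from the cortex of each kidney 72 hours after surgery, so every group shares the reporter and the sort. In 3 mice the aorta was narrowed (coarctation) at a point that lies between the origins of the 2 renal arteries, and 2 mice had a sham operation in which the aorta was neither exposed nor narrowed. The left and right kidney of each mouse were sequenced separately, which gives 4 groups: coarctation left and right with 3 libraries each, and sham left and right with 2 each. Renin cells are the juxtaglomerular cells of the afferent arteriole, which make and store renin and release it when renal perfusion pressure drops.

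A ribosome holds 1 copy of nearly every ribosomal protein, and the genes are known for high and closely matched expression. Their mRNAs begin with a run of pyrimidines (the terminal oligopyrimidine motif), through which mTOR and Larp1 control their translation. The genome also carries many processed copies of them, reverse-transcribed mRNAs inserted elsewhere, and sequencing reads from a gene and an identical copy cannot be told apart.

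Start windows of RefSeq (GRCm38.p6, 250 bases before to 50 after each start) were found for 55 of the 75 members, in 65 windows. A C followed by at least 5 pyrimidines (C or T) on the gene's own strand directly from the annotated start was present in 11 of 65 windows, or 16.9%, and in 1.7% of all 32851 windows. Within 15 bases on either side of the start such a run was present in 33 of 65 windows (50.8%) against 22.5% of all windows. The letters CCGGAAG, the core that ETS-family factors bind, stood on either strand in 24 of 65 member windows (36.9%) against 8.86% of all windows. The following 30-base windows are shown because they carry the run that defines this mRNA class around the annotated start, with the first base of the transcript at the sixteenth position and the run in capitals.
Rps6, chr4:86857353-86857382, minus strand: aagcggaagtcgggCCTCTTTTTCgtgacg
Rpl15, chr14:18270972-18271001, minus strand: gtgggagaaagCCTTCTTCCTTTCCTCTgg
Rpl14, chr9:120571502-120571531, plus strand: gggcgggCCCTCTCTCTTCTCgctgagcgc
Rplp2, chr7:141447636-141447665, plus strand: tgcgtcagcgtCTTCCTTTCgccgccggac
Rpl13a, chr7:45128731-45128760, minus strand: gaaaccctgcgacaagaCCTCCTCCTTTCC
These matches describe letters in the windows and were not used in any test of expression.

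Library totals lay between 20029817 and 32006229 estimated counts, and 11035 to 13063 genes were detected per library. Ren1, the renin gene that marks the sorted cells, was present in every library. The summed level of 10 renin cell and smooth muscle markers, Ren1 among them, was 47998 to 81178 TPM in the coarctation left libraries and 19682 to 37451 TPM in the coarctation right libraries. In the sham libraries it was 40375 to 82611 TPM. The sum is weighted to the genes of highest level. Of the 10 genes 7 were lower and 3 higher in the right kidney of the coarctation mice (median log2 change -0.25). Markers of other kidney and blood cells were also present and varied between libraries. Proximal tubule markers (12 genes) summed to 10303 TPM in the left library of coarctation mouse 3 against 927 to 5411 TPM elsewhere. Kap alone held 9094 TPM of that sum. Kap, Miox and Slc27a2 were highest in that library. Slc34a1, Slc5a2, Slc5a12, Slc22a8, Aqp1 and Gatm were highest in the left library of coarctation mouse 1, and the others in sham libraries. Red cell markers (5 genes) summed to 15981 TPM in the right library of coarctation mouse 3 against 152 to 4735 TPM elsewhere. Distal tubule and collecting duct markers (12 genes) summed to 1136 TPM in the right library of coarctation mouse 1, the library with the lowest share of member TPM below, against 120 to 628 TPM elsewhere. Of these 12 genes 10 were higher in the right kidney of the coarctation mice (median log2 change 1.17), and 3 of 12 in the sham mice (median -1.30). Leukocyte markers (12 genes) summed to 293 to 939 TPM in the coarctation right libraries and 68.8 to 437 TPM in the coarctation left libraries, with Adgre1, S100a8 and S100a9 at 0 in at least 1 library. Podocyte markers (6 genes) summed to 28.8 to 51.3 TPM in the coarctation left, 25.5 to 31.6 TPM in the coarctation right and 40.9 to 51.1 TPM in the sham libraries, and all 6 were lower in the right kidney of the coarctation mice (median -1.19). In these bulk libraries fewer cells of a type and less RNA per cell cannot be told apart, and the part of other cells in the results below was not tested.

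The 75 members together held between 3.58% and 4.80% of all TPM. In the coarctation left libraries the share was 4.21%, 4.80% and 4.09% for mice 1, 2 and 3, and in the right libraries of the same mice 3.58%, 3.83% and 4.3%. The sham left libraries had 4.48% and 4.03%, and the sham right libraries 4.18% and 4.04%. The right kidney thus held 0.850 and 0.796 of the left kidney's share in coarctation mice 1 and 2 and 1.05 of it in mouse 3, against 0.932 and 1.00 in sham mice 1 and 2. The group means were 4.37% ± 0.38 (SD, n = 3) and 3.90% ± 0.36 (SD, n = 3) in coarctation left and right, and 4.26% ± 0.32 (SD, n = 2) and 4.11% ± 0.096 (SD, n = 2) in sham left and right, so the groups overlapped. Leaving Ren1, the mitochondrially encoded genes and Gm29216 out of the total gave 4.95%, 5.45% and 4.72% in the coarctation left libraries and 4.12%, 4.22% and 4.80% in the right. The order within each coarctation mouse was the same. The sham mice then had 5.31% and 4.59% on the left and 4.74% and 4.50% on the right, so the right kidney was lower in both.

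**Figure D1:**
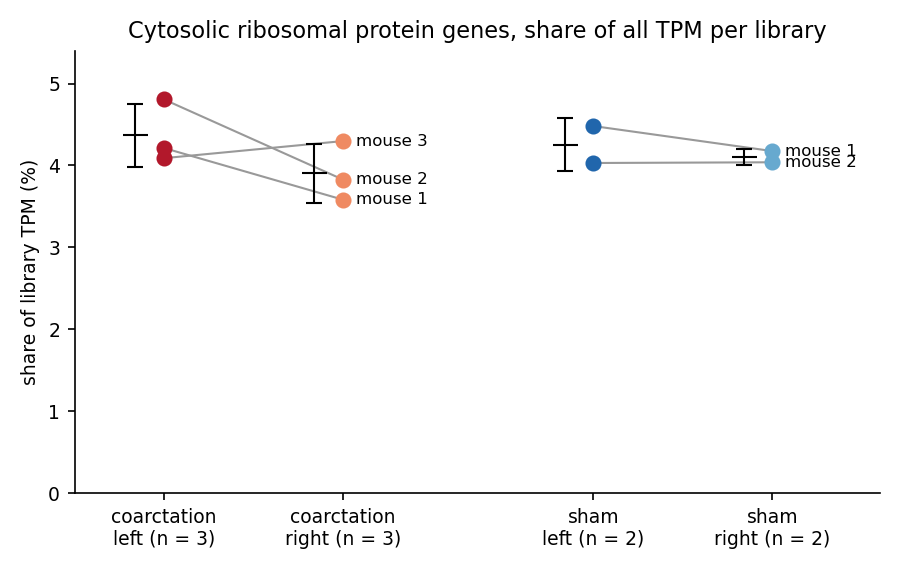
Share of each library's TPM held by the 75 genes (y axis, percent), with 1 point per library, lines joining the kidneys of a mouse, and bars for the group mean and SD. The right kidney lies below the left in coarctation mice 1 and 2 (3.58% against 4.21%, and 3.83% against 4.80%) and above it in mouse 3.

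The members spanned a wide range of levels. The median member stood at 462 TPM, with 404 TPM for the small and 480 TPM for the large subunit, 71 of the 75 lay between 100 and 1500 TPM, and 11 were above 1000 TPM. The highest was Rpl41, which encodes the shortest ribosomal protein, at a mean of 2094 TPM (1868 to 2390 over the libraries). Its coding sequence of 75 bases without the stop codon is shown because it is the shortest among the members and stands at the highest level: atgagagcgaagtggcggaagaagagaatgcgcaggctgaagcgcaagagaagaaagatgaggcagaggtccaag. Rps29, a small zinc-binding protein of the 40S subunit, was also among the highest, at 1383 TPM. The order of the 75 genes was closely kept: Spearman's rho across members between libraries ranged from 0.922 to 0.988 over 45 pairs, and from 0.974 to 0.988 between the kidneys of 1 mouse, given as a description because genes are not independent and libraries share the annotation and the length model.

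**Figure D2:**
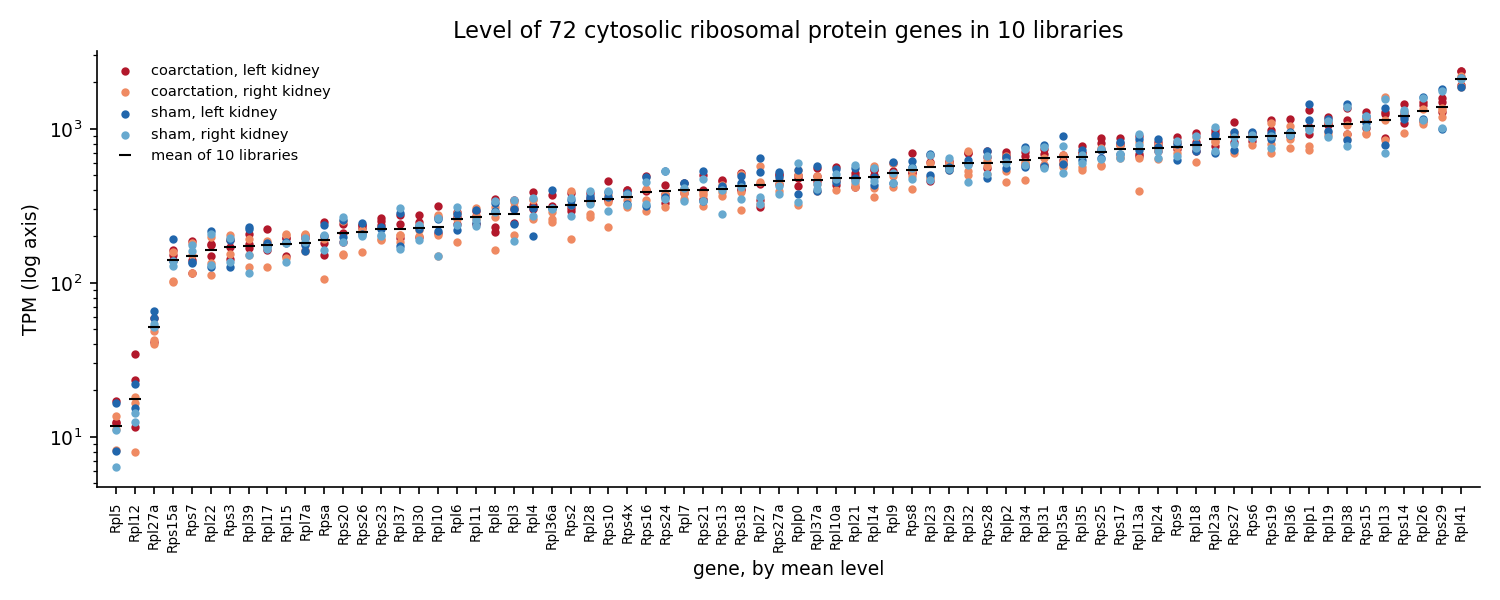
TPM of 72 of the 75 genes (log axis) in the 10 libraries, colored by group, with the mean as a dash. Rpl5, Rpl12 and Rpl27a stand apart at the low end at 11.7, 17.6 and 51.4 TPM, and Rpl41 at the high end at 2094 TPM.

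The members also varied less between libraries than other genes of high level. The SD of log2(TPM + 1) over the 10 libraries had a median of 0.21 over the members, against 0.42 over 4913 genes with a mean of at least 10 TPM and 0.30 over 1170 genes with at least 100 TPM. Nuclear genes of the respiratory chain had a median SD of 0.27 and proteasome genes 0.28. Between the kidneys of a mouse the members were not steadier than these 2 lists. The median SD within mice was 0.188 over the members, 0.133 over respiratory chain genes and 0.185 over proteasome genes. It was 0.205 over the genes with at least 100 TPM. Rps6, the 40S protein that S6 kinases phosphorylate downstream of mTOR, had the smallest SD at 0.084: it measured 946, 893 and 832 TPM in coarctation left, 783, 887 and 900.5 in coarctation right, 902 and 949 in sham left and 869 and 917 in sham right. The 4 groups of Rps6 overlapped. Rpl29 and Rpl11 were nearly as steady, with SDs of 0.091 and 0.13. Rpl12, Rpl13 and Rpl5 varied most, with SDs of 0.56, 0.43 and 0.42.

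Rpl13, a large subunit protein, differed between mice and little between the kidneys of a mouse. The left and right kidney had 866 and 841 TPM in coarctation mouse 1, 1286 and 1137 TPM in the second, and 1242 and 1614 TPM in the third. The sham pairs had 787 and 697 TPM and 1362 and 1561 TPM. Its SD was 0.44 between mice and 0.16 within mice, on the log2 scale. Short members stood high in some mice and low in others: across the 75 members the deviation of a mouse from the mean of all mice had a Spearman's rho with coding length of -0.39, 0.49 and 0.24 in coarctation mice 1 to 3 and of -0.64 and 0.59 in sham mice 1 and 2. Rps24, a short 40S protein, was the member furthest above the mean in sham mouse 1 (0.45 on the log2 scale), and Rps29 the member furthest below it in sham mouse 2 (-0.44). The cause was not tested.

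Several members shared their coding sequence with other rows of the table, which decides how their levels can be read. Among GENCODE transcripts of GRCm38, 433 rows outside the members matched the coding sequence of 70 members at 95% identity or more over at least 80% of its length. Most were listed under 1 TPM: 45 of them reached 1 TPM and 17 reached 10 TPM, and together they held 0.213% to 0.381% of each library's TPM. For 5 members the copies stood above the gene itself. Rpl5, which carries 5S rRNA and binds Mdm2 together with Rpl11, was listed at 11.7 TPM while Gm15500, with an identical 891-base coding sequence, was listed at 329 TPM. Rpl12, of the stalk base, was listed at 17.6 TPM and its identical copy Gm10275 at 194 TPM. Rpl27a was listed at 51.4 TPM and its identical copy Gm7536 at 160 TPM, Rps23 at 223 TPM and Rps23-ps1 at 546 TPM, and Rpl10 at 232 TPM and Rpl10-ps3 at 497 TPM. Rps12, listed at 0, had 2 identical copies, Rps12-ps3 at 155 TPM and Rps12l1 at 123 TPM. The low place of Rpl5, Rpl12 and Rpl27a among the members, and the absence of Rps12, are therefore uncertain, since reads of an identical copy could be assigned to either row.

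Some other copies differ from the coding sequence of the gene at 1 base. Within the coding sequence only reads over that base can be told apart, and the untranslated regions were not compared. The following stretches are shown because they hold the single base, in capitals, by which the coding sequences of gene and copy differ. Positions are counted from 1 at the start codon. Rpl37rt differs from Rpl37 by G249A and was listed at 222 TPM beside 224 TPM for Rpl37. Gm4149 differs from Rpl37a by T198C and was listed at 33.7 TPM beside 465 TPM.
Rpl37, bases 234 to 264: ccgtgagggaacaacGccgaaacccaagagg
Rpl37rt: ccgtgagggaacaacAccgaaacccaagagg
Rpl37a, bases 183 to 213: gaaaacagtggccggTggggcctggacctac
Gm4149: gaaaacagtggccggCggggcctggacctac

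Between the right and left kidneys of the coarctation mice, the question is how renin cells on the 2 sides of the narrowing differ. Nearly all members were lower in the right kidney by a small amount, and none passed the test. The median of the fitted log2 changes was -0.33, and 74 of 75 members were below 0, where 48.3% of all 18825 genes tested and 58.6% of the 4911 tested genes with at least 10 TPM were. The medians over those backgrounds were 0.02 and -0.07. With edgeR's quasi-likelihood test and Benjamini-Hochberg adjustment over all genes 0 of 75 members passed an adjusted p of 0.05 (0% of all genes tested did), and 0 had an unadjusted p under 0.05 in either direction (2.25% of genes were lower and 2.37% higher at that level). DESeq2 and limma-voom also called 0 members after adjustment, where they called 0.452% and 0% of all genes they tested.

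Within single mice, 61 of 75 members were lower in the right kidney of all 3 coarctation mice and 0 were higher in all 3, against 13.5% and 14.5% of all tested genes, and 21.2% and 10% of those with at least 10 TPM. The members' median change on the log2 CPM scale (counts scaled to library size) was -0.35, -0.49 and -0.16 in mice 1, 2 and 3, with 72, 75 and 63 of 75 members lower. Mouse 3 carries the smallest difference, and there the median over genes with at least 10 TPM was also -0.16, whereas it was -0.10 in mouse 1 and 0.01 in mouse 2. On the TPM scale the medians were -0.25, -0.33 and 0.07 with 69, 70 and 21 members lower, so the direction in mouse 3 turned with the scaling. Mouse 3 is the mouse whose left library held the highest sum of proximal tubule markers, mostly Kap, and whose right library held the highest sum of red cell markers. Their part was not tested.

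**Figure D3:**
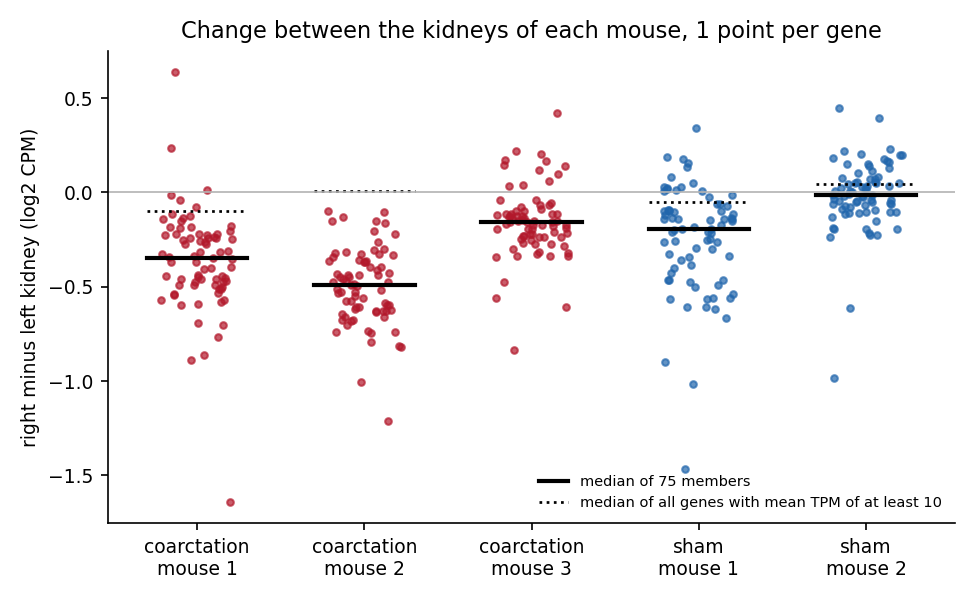
Right minus left kidney change of each of the 75 genes (y axis, log2 CPM) in the 5 mice, with the members' median as a solid line and the median of all genes with at least 10 TPM as a dotted line. The members' median lies below the dotted line in coarctation mice 1 and 2 (-0.35 against -0.10, and -0.49 against 0.01), on it in mouse 3, and below it by a smaller distance in both sham mice.

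The size of the change depends on how libraries are scaled. With library totals in place of TMM scaling the members' median was -0.18 and 69 of 75 were lower, while the median of all genes moved from 0.02 to 0.17. Relative to the median of all genes the members lay at -0.35 under both scalings, and relative to genes with at least 10 TPM at -0.26 and -0.27. Such a change of scaling moves all genes of a library by nearly the same amount, so this distance is kept by construction. With limma on log2(TPM + 1) the members lay at -0.26 relative to all genes of that fit, and at -0.26 relative to those with at least 10 TPM. With the mouse as a block (the 2 kidneys of an animal paired) the median was -0.34. Then 0 of 75 members passed the adjusted threshold (lowest adjusted p = 0.760 in edgeR's quasi-likelihood test), where 0.0266% of all genes did. In that fit 27 of 75 members had an unadjusted p under 0.05, all lower, against 3.3% of all genes and 6.74% of those with at least 10 TPM.

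Members of both subunits were lower in the right kidney, and the difference between the subunits was not tested. All 29 small subunit members were lower, with a median of -0.35, and 45 of 46 large subunit members, with a median of -0.31. The stalk proteins, which recruit translation factors to the large subunit, ranged widely. Rplp1 had the smallest p of all members: it measured 1024, 1324 and 933 TPM in coarctation left and 771, 733 and 1009 in coarctation right. The highest right library lay above the lowest left library, so the groups overlapped on the TPM scale. The fitted log2 change of Rplp1 was -0.53 (SE 0.25), with an unadjusted p of 0.0580 and an adjusted p of 1 in edgeR's quasi-likelihood test. Rplp2, its partner in the stalk dimer, had a log2 change of -0.45 (SE 0.26), and Rplp0, the scaffold of the stalk, one of -0.22 (SE 0.31). Rps25, a 40S protein used by viral internal ribosome entry sites, measured 810, 866 and 731 TPM on the left and 583, 576 and 752 on the right. These ranges overlapped through mouse 3 alone, and the log2 change was -0.49 (SE 0.24, unadjusted p = 0.0662 in edgeR's quasi-likelihood test). Rpl12 had the lowest log2 change, -0.87 (SE 0.44), from 23.4, 34.5 and 11.5 TPM on the left and 8.0, 16.5 and 18.1 TPM on the right. With its copies added it was -0.48 (SE 0.28), nearer to the other members. Adding copies moved Rpl10, an X-linked member of the large subunit, the other way. Its own row had -0.51 (SE 0.31, unadjusted p = 0.118), and with the copies the log2 change was -0.85 (SE 0.28, unadjusted p = 0.00964, adjusted p = 0.992 in edgeR's quasi-likelihood test). The sum of Rpl10 and its copies was 803, 982 and 856 TPM on the left and 387, 605 and 649 TPM on the right of the coarctation mice, with no overlap, and 766 and 902 TPM on the left and 529 and 833 TPM on the right of the sham mice.

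Members with roles outside translation gave values in the same range. Rps6 had a log2 change of -0.22 (SE 0.23). Rpl5 and Rpl11, the 5S rRNA carriers, had -0.48 (SE 0.40) and -0.09 (SE 0.27). Rpsa, which also acts as a laminin receptor, had -0.39 (SE 0.28), and Rps27a, made as a fusion with ubiquitin, -0.32 (SE 0.24). The 9 members that line the peptide exit tunnel or its rim, among them Rpl4 and Rpl39, were all lower, with a median of -0.33. In a list of 9 members whose human counterparts are mutated in Diamond-Blackfan anaemia all were lower, with a median of -0.38 and with Rps19 at -0.38 (SE 0.26). The list does not hold every gene of that disease: Rpl27, also known from it, is outside the list and had 0.19 (SE 0.30). The 4 X-linked members (Rpl10, Rpl36a, Rpl39 and Rps4x) had a median of -0.44. None of these genes passed the test, and differences between these groups of members were not tested.

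Ribosomal proteins that the symbol rule misses were mostly lower in the right kidney by the fitted change, with less agreement between mice among the paralogs. The 4 tested genes of this kind were all lower, with a median of -0.37. Of 9 tested paralogs and relatives of the members 8 were lower, with a median of -0.20 and a range from -1.59 to 0.35. By mouse 5, 5 and 7 of the 9 were lower in coarctation mice 1 to 3. In all 3 mice 2 of 9 were lower, where 21.2% of tested genes with at least 10 TPM were. Rack1, a scaffold on the 40S head, measured 179, 251 and 198 TPM on the left and 133, 176 and 171 TPM on the right of the coarctation mice. All 3 right libraries were below all 3 left libraries, and the log2 change was -0.54 (SE 0.23, unadjusted p = 0.0363, adjusted p = 1 in edgeR's quasi-likelihood test). Fau, a ubiquitin-like fusion with Rps30, had -0.41 (SE 0.23) and Rps3a1 -0.18 (SE 0.24). Rpl36al, the autosomal paralog of Rpl36a, had the smallest p in these lists. It measured 1632, 1729 and 1488 TPM on the left and 1092, 913 and 1021 TPM on the right, with no overlap, and a log2 change of -0.82 (SE 0.25, unadjusted p = 0.00662, adjusted p = 0.962 in edgeR's quasi-likelihood test). With the mouse as a block its adjusted p was 0.168.

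Among other translation genes, those known for pyrimidine-run mRNAs had the median nearest to that of the members. Of 21 translation factors and other genes known for mRNAs that start with a pyrimidine run 18 were lower in the right kidney, with a median of -0.22. For the difference between the coarctation and sham changes their median was -0.10, also that of tested genes with at least 10 TPM. The elongation factor Eef1a1 had a log2 change of -0.29 (SE 0.23), Eef1g -0.47 (SE 0.27) and the poly(A)-binding protein gene Pabpc1 -0.43 (SE 0.28). Of 16 other initiation factors 12 were lower, with a median of -0.07, which was also the median of tested genes with at least 10 TPM. Genes that build ribosomes were not shifted in the same way: 14 of 35 nucleolar and assembly factors were lower, with a median of 0.05, and 6 of 14 genes of RNA polymerase I, with a median of 0.11. Taf1a, of the polymerase I promoter complex, had 1.05 (SE 0.37, unadjusted p = 0.0134, adjusted p = 0.992 in edgeR's quasi-likelihood test). Among 17 regulators such as Mtor, Larp1 and Myc 6 were lower, with a median of 0.17, and Mtor had 0.83 (SE 0.52). Of 78 mitochondrial ribosomal protein genes 50 were lower, with a median of -0.10, of 80 nuclear respiratory chain genes 49, with -0.06, and of 39 proteasome genes 21, with -0.01. These lists were compared by counts and medians only, and 0 of their genes passed the adjusted threshold.

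**Figure D4:**
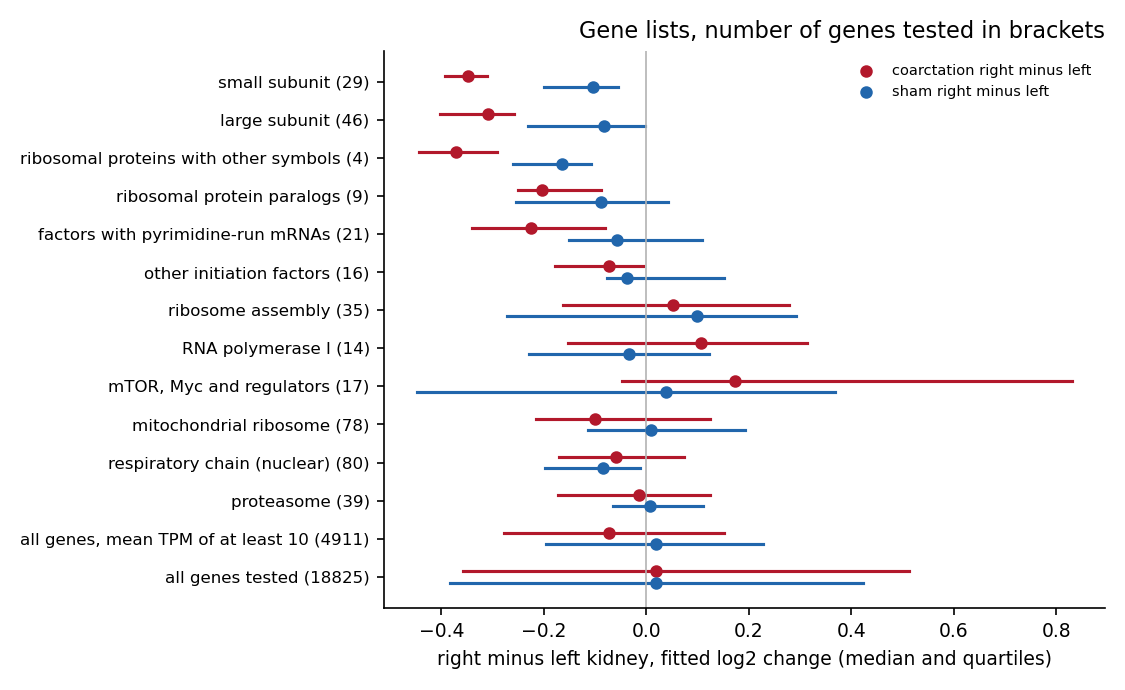
Median and quartiles of the fitted right minus left log2 change (x axis) for gene lists in coarctation (red) and sham (blue) mice, with the number of genes tested in brackets. The small and large subunit members have medians of -0.35 and -0.31 in coarctation and -0.10 and -0.08 in sham mice, and ribosome assembly genes 0.05 and 0.10.

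In the sham mice the same comparison gives the difference between the sides without a narrowing. The members' median was -0.10, and 59 of 75 were below 0, where 48.4% of all genes tested were. In both mice 36 members were lower and 11 higher on the right (24.3% and 24.5% of all genes). By mouse the median was -0.19 in sham mouse 1 with 61 members lower, and -0.01 in sham mouse 2 with 39 lower, and without both kidneys of mouse 1 the fitted median was -0.01. With edgeR's quasi-likelihood test 0 members passed after adjustment (0% of all genes), and 1 of 75 had an unadjusted p under 0.05 (1.1% of all genes were lower and 0.845% higher at that level). That gene was Rpl27, with -0.81 (SE 0.37, unadjusted p = 0.0488, adjusted p = 1 in edgeR's quasi-likelihood test). Rpl39, a short protein at the exit tunnel, measured 223 and 232 TPM on the left and 117 and 151 on the right of the sham mice, with no overlap, and had -0.79 (SE 0.37, unadjusted p = 0.0547 in the same test). With the mouse as a block these 2 members had an unadjusted p under 0.05, both lower, where 1.69% of all genes were lower and 1.32% higher at that level.

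In its fitted coarctation change Rpl27 went against the other members, and the sum of Rpl27 and its identical copy did not. Rpl27 was the only member with a positive fitted change in the coarctation mice, 0.19 (SE 0.30), with 346, 437 and 311 TPM on the left and 575, 453 and 327 TPM on the right. In log2 CPM it was higher on the right in mouse 1 alone (0.64) and lower in mice 2 and 3 (-0.10 and -0.16). In the sham mice it measured 522 and 644 TPM on the left and 363 and 324 on the right. Its copies, nearly all of which is Rpl27-ps3 with an identical 408-base coding sequence, ran the other way in most pairs: 218, 370 and 371 TPM on the left and 39.1, 119 and 472 TPM on the right of coarctation mice 1 to 3, and 134 and 59.3 TPM on the left and 284 and 384 TPM on the right of the sham mice. The sum was steadier, 564 to 807 TPM, and its SD of log2(TPM + 1) was 0.18, against 0.38 for Rpl27 and 1.22 for the copies. With the copies added the log2 change was -0.15 (SE 0.25) in coarctation and -0.13 (SE 0.31) in sham mice, and the difference between them -0.02 (SE 0.40) in place of 1.00 (SE 0.48).

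**Figure D5:**
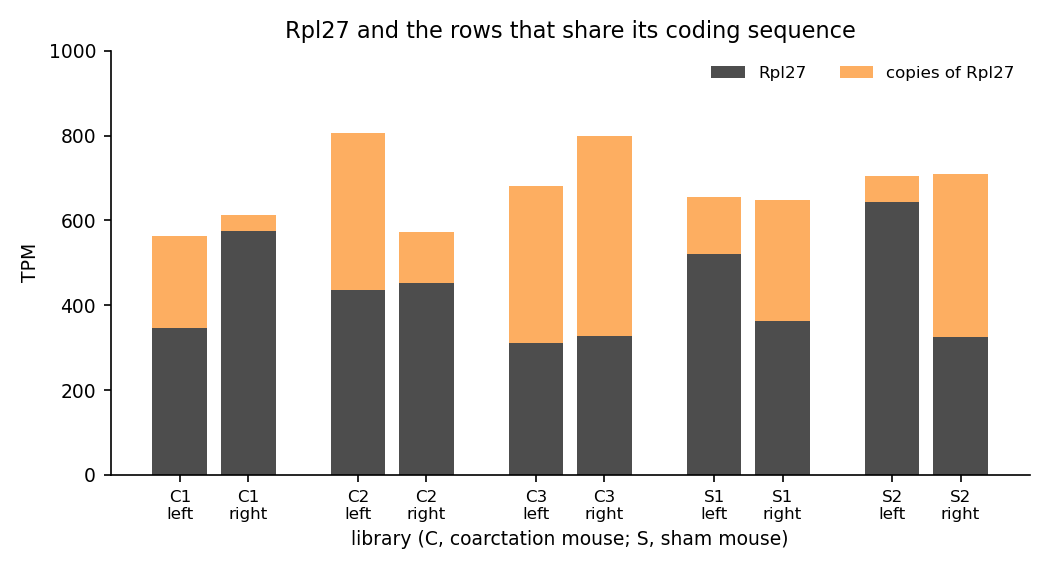
TPM of Rpl27 (dark) and of the rows that share its coding sequence (orange), stacked for each library with the left and right kidney of a mouse side by side. The dark bar varies from 311 to 644 TPM, and the stacked total from 564 to 807 TPM.

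The change between the sides could differ between coarctation and sham mice, which the interaction of the same fit tests. The members' median difference was -0.24, and 66 of 75 were below 0 (49.2% of all genes, 58.7% of those with at least 10 TPM). The median over genes with at least 10 TPM was -0.10. For 27 of 75 members every coarctation mouse lay below every sham mouse, which held for 10.1% of all tested genes and 15.3% of those with at least 10 TPM, and for 1 member, Rpl27, every coarctation mouse lay above (10.3% of all tested genes). With edgeR's quasi-likelihood test 0 of 75 members passed after adjustment (0% of all genes), and 0 had an unadjusted p under 0.05 (1.37% of all genes were lower and 1.68% higher at that level). Rpl14 and Rpl4 were among the members with the smallest p below 0. Rpl14, a large subunit protein, measured 504, 551 and 536 TPM on the left and 359, 411 and 576 on the right in coarctation mice, and 432 and 488 on the left and 460 and 558 on the right in sham mice. Its difference was -0.52 (SE 0.42). Rpl4, which reaches into the exit tunnel, had -0.52 (SE 0.42), and both genes had an adjusted p of 1.00 in edgeR's quasi-likelihood test. With the mouse as a block 2 members, among them Rpl4, were lower and 1, Rpl27, higher at an unadjusted p under 0.05 (2.06% and 2.1% of all genes), and 0 passed after adjustment. With library totals in place of TMM the median difference was -0.12 and 57 of 75 members were below 0, while the median of all genes moved from 0.02 to 0.13. The number below 0 was lowest, 45 of 75, without the right library of sham mouse 2. The comparison of the changes rests on 2 sham mice that themselves differed.

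In the left kidney the comparison of coarctation with sham mice asks how renin cells of that side differ between narrowed and unnarrowed mice. The members' median was 0.31, and 72 of 75 were above 0 and 3 below (51.2% of all genes and 26.9% of those with at least 10 TPM were below). Genes of high level were also higher: the median of genes with at least 10 TPM was 0.22 and that of all genes -0.02. In log2 CPM 45 of 75 members had every coarctation library above every sham library (9.73% of all genes, 17.5% of those with at least 10 TPM) and 1 had every one below (12% of all genes). With library totals in place of TMM the median was 0.05 and 45 of 75 members were higher, while the median of all genes moved to -0.27. With edgeR's quasi-likelihood test 0 of 75 members passed after adjustment (lowest adjusted p = 0.912, 0% of all genes), and 0 had an unadjusted p under 0.05 (2.91% of all genes were lower and 1.84% higher). Rpl4 had the smallest p, with 300, 389 and 319 TPM in coarctation and 202 and 306 TPM in sham left kidneys and a log2 change of 0.64 (SE 0.31, unadjusted p = 0.0572 in edgeR's quasi-likelihood test). The lowest coarctation library lay just below the higher sham library. Rps25 had 0.48 (SE 0.27).

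In the right kidney the members' median was 0.05, and 26 of 75 were below 0 (52.7% of all genes). Of genes with at least 10 TPM 36% were below 0, and their median was 0.13, above that of the members. The direction of the members' median turned with the scaling: with library totals it was -0.08. In log2 CPM 4 members had every coarctation library above every sham library (7.2% of all genes, 10.1% of those with at least 10 TPM). For 0 members every one lay below (9.18% and 4.11%). With edgeR's quasi-likelihood test 0 members passed after adjustment (lowest adjusted p = 0.995, 0% of all genes), and 0 had an unadjusted p under 0.05 (1.92% of all genes were lower and 1.91% higher). Rpl27 had 0.56 (SE 0.34) and, with its copies added, 0.15 (SE 0.29). Rpl13a, a large subunit protein known for a role in silencing inflammatory mRNAs, had -0.36 (SE 0.31), with 395, 649 and 820 TPM in coarctation and 783 and 924 TPM in sham right kidneys. The comparisons with the sham mice share those 2 animals and are not independent of one another.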

How the data were processed

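RNA of sorted renin cells was sequenced in 10 libraries (5 mice, 2 kidneys each). The authors deposited 1 table of genes with TPM, estimated counts and an average transcript length. Per the file headers the counts were scaled from TPM by length and library size. GRCm38 (mm10) and FastQC are named per the submitters' processing notes, and no aligner, quantifier or gene annotation is given in the sources used here. The library size sums ranged from 20029817 to 32006229 estimated counts. Length values entered no test.

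Estimated counts were rounded to whole numbers and tested with edgeR 4.0.16 (glmQLFit, glmQLFTest, filterByExpr, TMM) in 1 fit of 4 groups over 18825 genes, with Benjamini-Hochberg adjustment over all of them. All 75 members passed the filter. Standard errors are the log2 change divided by the square root of F. Changes within a mouse are differences of log2 CPM (prior count 2). The kidneys of a mouse pair by animal. Over all 18825 genes, deviations from the group means of same-numbered kidneys correlated at 0.13, 0.05 and 0.03 in coarctation mice 1 to 3. In the sham mice they correlated at 0.40. Over the 75 members the values were higher, at 0.47, 0.56 and 0.12 in coarctation mice 1 to 3 and 0.72 in the sham mice. With 2 mice in a group, both mice give the same value by construction. The fit without the block is reported, and the block beside it where it moves a count. DESeq2 1.42.0, limma 3.58.1, other scalings, filters, pseudocounts of 1 and 0.1 and left-out libraries were alternatives, and the fits were tested on simulated data.

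Copies were found with BLAST+ 2.17.0 against GENCODE transcripts of GRCm38, requiring 95% identity, 80% of the coding sequence and 50% of the copy's transcript; adding them was chosen after seeing the data, as was the block fit without sham mouse 1. The members and lists were chosen with earlier results of these data known. Genes named in the text were the stalk genes and 11 others of known role, the 3 members with the smallest p in each direction of each comparison, the 3 highest and lowest in level and the 3 most and least variable; of other lists up to 4 with the smallest p were eligible. Rpl37, Rpl37a, Rps23, Rpl10 and Rpl36a were named for their copies or family. Some genes that this rule names are not reported here. Sequences are from RefSeq (GRCm38.p6) and GENCODE.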

Additional observations from a re-analysis of the deposited data

Results flagged for a closer look

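Among the 72 members reported singly, 7 had the following pattern: every coarctation mouse had a lower and both sham mice a higher value in the right kidney than in the left (log2 CPM). In sham mouse 1 the change was only 0.007 for Rpl14 and 0.006 for Rpl6. On the TPM scale all 7 were higher in the right kidney of coarctation mouse 3, by 0.01 (Rps9) to 0.12 (Rps14) in log2. None therefore kept the pattern on that scale. The share of all tested genes with this pattern was not counted, so the count of 7 is not a result about the members. The wider pattern, every coarctation mouse below every sham mouse, held for 27 of 75 members. It held for 10.1% of all tested genes and 15.3% of those with at least 10 TPM. The difference between the 2 changes was itself tested, and none of the 7 passed (adjusted p of 1.00 in edgeR's quasi-likelihood test), so these are values and not calls. The fitted difference was -0.52 for Rpl14 and -0.52 for Rpl4. It was -0.43 for Rps14. Rpl7a and Rpl6 had -0.41 and -0.40. Rpl23a had -0.33 and Rps9 had -0.29.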

How the results depend on the processing

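In every alternative run 0 of 75 members passed the adjusted threshold. The lowest adjusted p was 0.760, 0.956 and 0.906 for the coarctation, sham and difference comparisons between the sides and 0.684 and 0.609 for coarctation against sham in the left and right kidney. With the replicate block the medians were -0.34 in coarctation, -0.10 in sham and -0.23 for the difference, and the block changed no call. Leaving out 1 library gave medians of -0.40 to -0.19 (coarctation), -0.27 to -0.036 (sham), -0.33 to -0.10 (difference), 0.20 to 0.33 (left kidney) and -0.004 to 0.22 (right kidney). The coarctation median was -0.19 without the left library of mouse 1 and -0.20 without that of mouse 2, and the difference -0.10 without the right library of sham mouse 2. The left kidney median was 0.054 with library totals, 0.068 with limma on log2(TPM + 1) and 0.068 with a pseudocount of 0.1; the cause was not tested. Over all genes the main fit called 0 in every comparison, DESeq2 86, 23, 37, 46 and 47 and the fit without a filter 112, 19, 63, 67 and 70 in the order above, the block 5 and limma on log2(TPM + 1) 3 in coarctation, and leaving out the right library of coarctation mouse 3 gave 3 there and 3 in the right kidney. Adding copies moved Rpl27 and, in the coarctation comparison, Rpl10 by more than 1 SE. With 2 sham mice and residual degrees of freedom of 6, or 3 with the block, shifts of this size were not detectable gene by gene.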
